A study of Arabidopsis thaliana with 4 samples.

Results

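The genes described here encode enzymes of the tricarboxylic acid cycle and of malate and citrate metabolism in Arabidopsis thaliana. They are a fixed list of 33 nuclear genes for 10 enzyme steps, and a gene counted as measured when the probe table tied a probe set of the ATH1 array to it and to no other gene. By that rule 11 of the 33 genes were measured, by 12 of the 22746 plant probe sets. Seedlings with short roots were moved from agar plates into liquid, modified Murashige and Skoog medium at reduced strength with 1% sucrose and harvested 16 h later. The aluminium group received 50 µM aluminium, and the control group was mock-treated. Each group had 2 arrays, numbered 1 and 2 in the titles, and each array carried RNA of 100 pooled whole seedlings. The treatment text is the same in all 4 records, so the groups were taken from the titles, and the labels give no accession, age or medium pH. The arrays of a group are described as biological replicates, and their small number limits the precision of every value.

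The tricarboxylic acid cycle runs in the mitochondrial matrix and oxidises acetyl-CoA to carbon dioxide, which yields reducing power for the respiratory chain. It also supplies carbon skeletons: citrate leaves it for the cytosol, 2-oxoglutarate feeds nitrogen assimilation, and malate moves between mitochondria, plastids, peroxisomes and the vacuole. Phosphoenolpyruvate carboxylase refills the cycle and malic enzymes drain malate to pyruvate. Plant roots are known to release malate and citrate, which bind aluminium ions outside the cell, so enzymes that make these acids are often examined under aluminium.

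All measured genes came from 4 consecutive steps, in which isocitrate is turned into fumarate. They were 3 of 5 isocitrate dehydrogenase genes, both genes for the first subunit of 2-oxoglutarate dehydrogenase, all 3 succinyl-CoA ligase genes and all 3 succinate dehydrogenase genes of the list. The other 6 steps had no measured gene, so the listed genes that make and use malate and citrate themselves were not analysed here. These were the mitochondrial malate dehydrogenases AT1G53240 and AT3G15020, the citrate synthases AT3G58750, AT2G42790, AT2G44350 and AT3G60100, and the aconitases AT4G35830, AT4G26970 and AT2G05710. Further unmeasured genes were the fumarases AT2G47510 and AT5G50950, and the phosphoenolpyruvate carboxylases AT1G53310, AT2G42600 and AT3G14940. The list was completed by 6 malic enzyme genes (AT2G19900, AT5G11670, AT5G25880, AT1G79750, AT2G13560 and AT4G00570) and by the regulatory isocitrate dehydrogenase subunits AT4G35260 and AT2G17130, also unmeasured.

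The arrays differed in their controls. The geometric mean intensity of 18 hybridization controls, which are added to the labelled sample, was 131442 on aluminium array 1 and 51057 on control array 1, against 11226 on aluminium array 2 and 6339 on control array 2. The level used here as background was the 95th percentile of 27 bacterial control probe sets on the same array, and it ranged from 422 to 586. Between 35.1% and 45.3% of plant probe sets exceeded it. The 3′ to 5′ ratio of GAPDH, which is larger in shortened transcripts, was 3.52 on aluminium array 1 and 1.44 to 1.71 on the others. The same ratio of actin was 6.01 and 3.07 on the aluminium arrays and 2.78 and 1.94 on the controls. Both aluminium values of actin thus lay above both control values, and the part of this in the values below was not tested. Aluminium array 1 also had the lowest correlations with the other arrays over all plant probe sets (Pearson's r of 0.528 to 0.581, against 0.665 to 0.770 among the rest; probe sets are not independent replicates). Of the tissue markers examined, 3 of 7 for shoots were measured (RCA, PRK and LHCB4.1), and all 3 were lower on both aluminium arrays. Of all plant probe sets, 16.2% were likewise lower with aluminium without overlap of the groups. None of the 3 shoot markers passed limma's moderated test after adjustment (adjusted p = 0.966 for each). The summed intensity of these 3 markers was 4997 and 8980 with aluminium against 27064 and 18588 in controls. For roots 3 of 8 markers were measured (PYK10, EXPA7 and EXPA18), and their sum was 629 and 2242 against 1597 and 1745. EXPA7 lay under background on all arrays and no root marker exceeded it on every array, while 2 of the 3 shoot markers did. Of the pollen markers 1 of 2 was measured and lay under background on all arrays, and 0 of 3 seed storage markers were measured. No marker measured was at 0. In RNA of whole seedlings, fewer cells of a type and less RNA per cell cannot be told apart, and the part of tissue makeup in the values below was not tested.

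**Figure D1:**
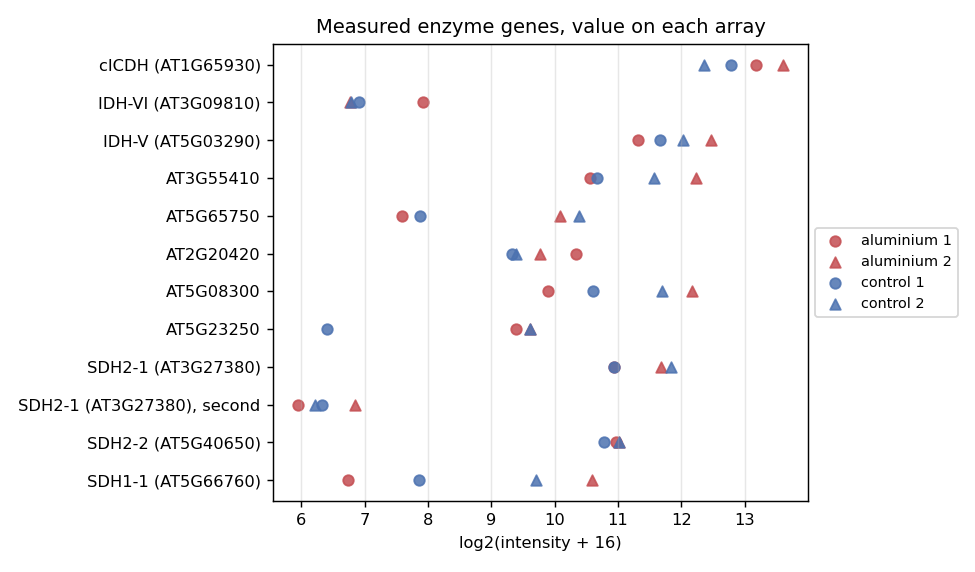
Level of the 11 measured genes on each of the 4 arrays, as log2(intensity + 16) on the horizontal axis, with colours for treatment and symbols for the array number. In 8 genes both triangles (arrays numbered 2) lie to the right of both circles (arrays numbered 1), while the red and blue symbols lie apart in cICDH and AT2G20420.

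The first question was whether any enzyme gene responded to aluminium. None of the 11 genes passed limma's moderated test with Benjamini-Hochberg adjustment over all plant probe sets (adjusted p from 0.966 to 1.00), where 0% of all plant probe sets passed at an adjusted p of 0.05. At an unadjusted p under 0.05 there were 0 of 11 genes, against 4.77% of all plant probe sets. On the scale log2(intensity + 16), 7 genes had a higher mean with aluminium and 4 a lower one. The median difference was 0.09, beside 0.01 over all plant probe sets, and single genes ranged from −0.28 to 1.49. The groups did not overlap in 2 genes, cICDH and AT2G20420, both higher with aluminium, where 16.5% of all plant probe sets were higher and 16.2% lower without overlap. The factors were 1.76 for cICDH and 1.62 for AT2G20420, so neither reached 2-fold, a size reached without overlap by 9.66% of all plant probe sets in the higher and 9.93% in the lower direction. With quantile normalization cICDH stood at 2.47-fold (a difference of 1.31), and SDH2-2 also showed no overlap, at 1.09-fold. Under that setting 32.9% of all plant probe sets did not overlap. On the deposited scaling, 18.2% of the list and 32.7% of all plant probe sets were without overlap in either direction.

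The signs depended on single arrays. The number of genes with a higher mean was 10 without aluminium array 1, 5 without aluminium array 2, 3 without control array 1 and 11 without control array 2. The median difference was 0.97, −0.46, −0.14 and 0.61 in the same order. The direction was the same with each array left out in 2 of 11 genes, cICDH and AT2G20420. These are the genes whose groups did not overlap, so leaving out 1 array could not change their sign. The same holds for the 32.7% of all plant probe sets without overlap. The 95% intervals reached a median of 1.84 to either side of the estimate, and in all 11 genes they included both 0 and a 2-fold change in at least 1 direction. With 2 arrays per group, a change of that size was not detectable in these genes.

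**Figure D2:**
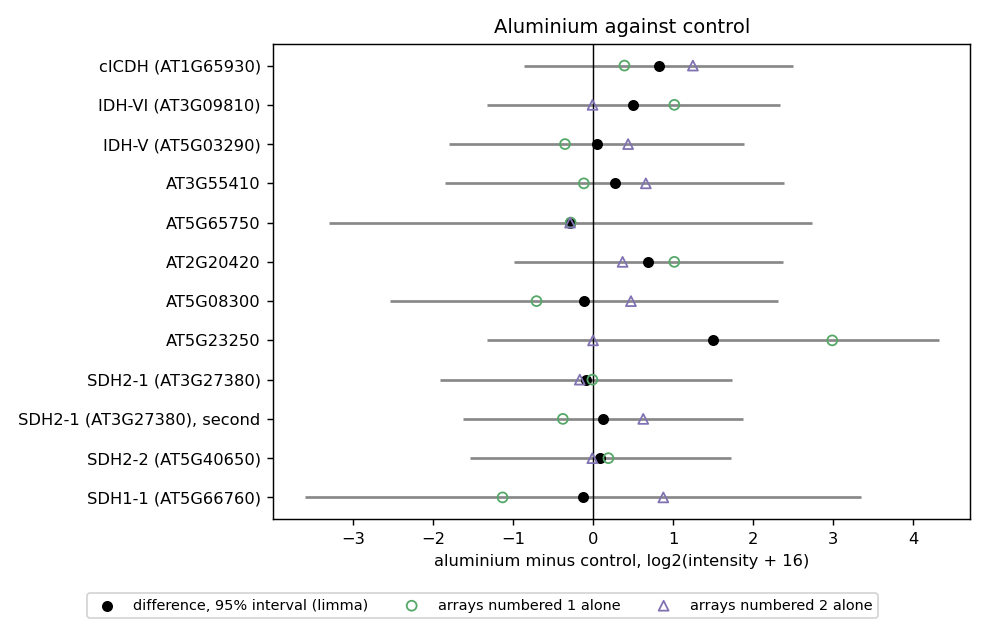
Aluminium minus control for each measured probe set on the scale log2(intensity + 16), with limma's 95% interval as a line (n = 2 arrays per group). Open symbols give the difference between the arrays numbered 1 and between those numbered 2; every interval crosses 0, and the open symbols lie far apart for AT5G23250 and SDH1-1.

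Isocitrate dehydrogenases convert isocitrate to 2-oxoglutarate. The cytosolic enzyme cICDH (AT1G65930) uses NADP and supplies NADPH outside the mitochondrion. Its probe set read 9264 and 12491 on the aluminium arrays and 7057 and 5253 on the controls, so both aluminium values lay above both control values. The log2 level averaged 13.40 ± 0.30 in the aluminium group and 12.58 ± 0.30 in the control group (SD, n = 2 each). The difference was 0.82 with a standard error of 0.68 and a 95% interval from −0.86 to 2.50 (limma adjusted p = 0.966). It was 0.39 between the arrays numbered 1 and 1.25 between those numbered 2, and it ranged from 0.60 to 1.03 with single arrays left out, and was 1.31 with quantile normalization. All 4 values lay above the background level.

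IDH-V (AT5G03290) and IDH-VI (AT3G09810) encode catalytic subunits of the mitochondrial, NAD-dependent enzyme. IDH-V read 2527 and 5625 on the aluminium arrays and 3228 and 4148 on the controls. Aluminium held both its lowest and its highest value, and the log2 means were 11.89 ± 0.81 and 11.84 ± 0.25 (SD, n = 2 each). The difference was 0.04 (95% interval −1.80 to 1.89). IDH-VI read 227 and 93.7 on the aluminium arrays and 104 and 94.2 on the controls, under the background level on each array. Only aluminium array 1 stood apart for IDH-VI, and the difference of 0.50 (95% interval −1.32 to 2.33) became −0.071 without it. Both genes thus had intervals that span a 2-fold change in both directions.

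The 2-oxoglutarate dehydrogenase complex makes succinyl-CoA and releases carbon dioxide. AT3G55410 and AT5G65750 encode its E1 subunit, which removes the carboxyl group. AT3G55410 read 1492 and 4771 on the aluminium arrays and 1618 and 3015 on the controls. Within each treatment array 2 was brighter than array 1, by 3.20 times with aluminium and 1.86 times in controls. The log2 difference between treatments was 0.27 (95% interval −1.85 to 2.39).

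AT5G65750 read 177 and 1073 on the aluminium arrays and 218 and 1314 on the controls. Its values fell into a dim set on the arrays numbered 1, under the background level, and a bright set on those numbered 2, above it. Array 2 was 6.08 times as bright as array 1 with aluminium and 6.03 times in controls. The difference between treatments was −0.28, with −0.28 between the arrays numbered 1 and −0.29 between those numbered 2. Its interval ran from −3.30 to 2.74, since the spread between arrays of one treatment was 1.77 in both groups (SD, n = 2 each). AT5G65750 was 1 of 4 genes, of 11, whose difference had the same sign for both array numbers, beside 11747 of the 22746 plant probe sets.

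Succinyl-CoA ligase splits succinyl-CoA and forms a nucleoside triphosphate, the one step of the cycle that does so directly. Its alpha subunit is encoded by AT5G08300 and AT5G23250 and its beta subunit by AT2G20420. The beta subunit gene read 1276 and 855 on the aluminium arrays and 624 and 658 on the controls, so the groups did not overlap. Its log2 level averaged 10.05 ± 0.40 in the aluminium group and 9.36 ± 0.05 in the control group (SD, n = 2 each). The difference was 0.69 with a standard error of 0.68 and an interval from −0.99 to 2.37 (limma adjusted p = 0.966). It ranged from 0.41 to 0.98 with single arrays left out.

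The alpha subunit genes had other patterns. AT5G08300 read 939.8 and 4564 on the aluminium arrays and 1544 and 3284 on the controls, bright on both arrays numbered 2. Its difference between treatments was −0.12 (95% interval −2.54 to 2.31). AT5G23250 read 657 and 767 on the aluminium arrays and 68.7 and 767 on the controls, so 3 arrays were close to each other and control array 1 was under background. The difference for AT5G23250 was 1.49 (interval from −1.33 to 4.32), the largest estimate among the 11 genes, and it was −0.11 without control array 1. Of the 3 ligase genes, 1 had groups that did not overlap, the beta subunit gene, beside 32.7% of all plant probe sets.

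Succinate dehydrogenase, complex II of the respiratory chain, oxidises succinate to fumarate and passes electrons to ubiquinone. SDH1-1 (AT5G66760) encodes the flavoprotein subunit, where succinate is oxidised. It read 90.4 and 1521 on the aluminium arrays and 217 and 820.1 on the controls, under background on the arrays numbered 1 and above it on those numbered 2. Array 2 was 16.8 times as bright as array 1 with aluminium and 3.78 times in controls. The difference between treatments was −0.13 (95% interval −3.60 to 3.35), the widest among the 11 genes. It was −1.13 between the arrays numbered 1 and 0.88 between those numbered 2.

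SDH2-1 (AT3G27380) and SDH2-2 (AT5G40650) encode iron-sulfur subunits, which carry electrons from the flavoprotein to the membrane. SDH2-2 was the most even of the 11 genes across treatments and arrays, with 1996 and 2052 on the aluminium arrays and 1746 and 2066 on the controls. Its log2 means were 10.99 ± 0.03 and 10.90 ± 0.17 (SD, n = 2 each), and the difference was 0.09 (95% interval −1.54 to 1.73). SDH2-1 was measured by 2 probe sets, of which the brighter one was used for the gene. This one read 1935 and 3252 on the aluminium arrays and 1947 and 3651 on the controls, a difference of −0.09. The second probe set of SDH2-1 read 45.5 to 99.0, under background on all arrays, and differed by 0.12, so the probe sets had opposite signs.

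In most of these genes the arrays of one treatment differed by more than the treatments did. In 8 of 11 genes both arrays numbered 2 lay above both arrays numbered 1, a pattern shown by 17.9% of all plant probe sets. They were IDH-V, AT3G55410, AT5G65750, AT5G08300, AT5G23250 and all 3 succinate dehydrogenase genes. Among the 7 genes above background on every array, 5 had this pattern, beside 19.2% of the 4100 plant probe sets above background on every array. The median of array 2 minus array 1 was 0.74 with aluminium and 0.89 in controls on the log2 scale, beside −0.04 and 0.00 over all plant probe sets. In 6 of 11 genes the difference between treatments was smaller than the differences between arrays within both treatments, and in 2 it was larger than both. The labels do not say what the number stands for. The arrays numbered 1 had the brighter hybridization controls (51057 and 131442 against 6339 and 11226). Within each treatment, array 1 also had the higher 3′ to 5′ ratios and 25S ribosomal RNA signal. For GAPDH the ratios were 3.52 against 1.70 with aluminium and 1.71 against 1.44 in controls. For actin they were 6.01 against 3.07 and 2.78 against 1.94, and the 25S signals were 3511 against 533 and 1362 against 416. The part of these differences in the pattern was not tested.

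**Figure D3:**
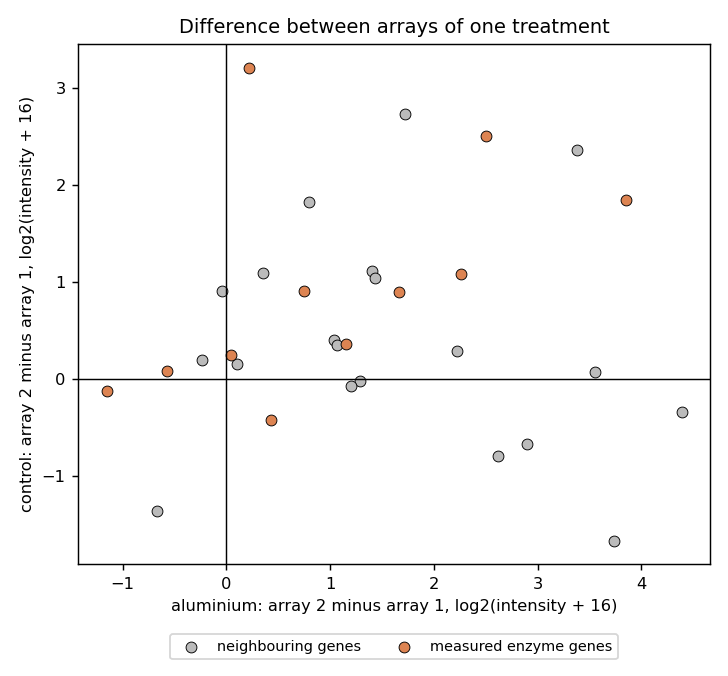
Array 2 minus array 1 within the aluminium group (horizontal) and within the control group (vertical), on the scale log2(intensity + 16), for the 11 measured enzyme genes and 20 neighbouring genes. Of the orange points, 8 lie in the upper right, where array 2 read higher in both groups, and some grey points lie far to the right at heights near or under 0.

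Neighbouring genes of the pathway were described from a list of 63, of which 20 were measured. None of the 20 passed limma after adjustment (adjusted p of 0.966 or above), and 0 had an unadjusted p under 0.05, beside 4.77% of all plant probe sets. Their means were higher with aluminium in 11 genes and lower in 9, with a median of 0.15. The groups did not overlap in 3 genes in the higher and 3 in the lower direction, 30.0% of the 20 beside 32.7% of all plant probe sets. Both arrays numbered 2 lay above both numbered 1 in 9 of the 20, beside 17.9%. With single arrays left out, the difference changed sign in 13 of the 20 and kept it in 7. Most of the 7 were the genes without overlap, in which leaving out 1 array cannot change the sign. The genes named below are the 2 in each group with the largest difference, or the 1 measured.

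The E2 subunit of 2-oxoglutarate dehydrogenase passes the succinyl group to coenzyme A and is encoded by AT5G55070 and AT4G26910. AT5G55070 read 1768 and 5877 on the aluminium arrays and 378 and 2597 on the controls, a difference of 1.68 (95% interval −1.16 to 4.51) that was 0.31 without control array 1 and 3.04 without control array 2. AT4G26910 read 148 and 1696 on the aluminium arrays and 143 and 798 on the controls, a difference of 0.56 that ranged from −1.13 to 2.25 with single arrays left out. All 4 measured E1 and E2 genes were brighter on both arrays numbered 2 than on both numbered 1, beside 17.9% of all plant probe sets. In these 4 genes array 2 was 1.86 to 11.5 times as bright as array 1 within a treatment.

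The pyruvate dehydrogenase complex delivers acetyl-CoA to the cycle, and 4 of its 8 listed genes were measured. Its acetyltransferase gene AT3G13930 read 1385 and 3688 on the aluminium arrays and 946 and 2065 on the controls, a difference of 0.69 that was −0.014 without aluminium array 2. LTA3 (AT3G52200), a further acetyltransferase gene, read 51.1 and 881 on the aluminium arrays and 455 and 132 on the controls. Its arrays of one treatment lay farther apart than the treatments, whose difference was −0.11 and ranged from −1.98 to 1.76 with single arrays left out. AT5G19760, a mitochondrial carrier that exchanges dicarboxylates and tricarboxylates, was the 1 measured of 5 carriers. It read 4676 and 12686 on the aluminium arrays and 5510 and 11369 on the controls, again bright on both arrays numbered 2, and differed by −0.04.

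Isocitrate lyase, encoded by ICL (AT3G21720), is the glyoxylate cycle enzyme that lets germinating seeds turn stored oil into sugar. It read 147 and 3408 on the aluminium arrays and 4714 and 3708 on the controls, a difference of −2.49 (95% interval −6.05 to 1.07). The low value came from aluminium array 1, and without it the difference was −0.29. ICDH (AT1G54340), the peroxisomal NADP isocitrate dehydrogenase, read 66.5 and 953 on the aluminium arrays and 1219.7 and 1281 on the controls. Its difference was −2.16 and became −0.39 without aluminium array 1.

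ATP citrate lyase splits cytosolic citrate to acetyl-CoA for lipid and wax synthesis, and 4 of its 5 genes were measured. ACLA-3 (AT1G09430) read 53.4 and 500.3 on the aluminium arrays and 962 and 598 on the controls, a difference of −2.03 that was −0.59 without aluminium array 1. ACLA-1 (AT1G10670) went the other way, with 659.9 and 642 against 233 and 448 and a difference of 0.97. ICL, ICDH and ACLA-3 were the 3 neighbours that were lower without overlap, and each was at least 2-fold lower in the means, as were 9.93% of all plant probe sets. On aluminium array 1 these 3 genes were under background, and on the other arrays they were above it.

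Citrate export is served by AT1G51340, a MATE family transporter, the 1 measured of 9 channel and exporter genes. It read 1569.8 and 1335 on the aluminium arrays and 790.1 and 906 on the controls, a difference of 0.76 (95% interval −0.88 to 2.40). Its difference ranged from 0.65 to 0.88 with single arrays left out. ALMT1, the root malate channel, was among the genes with no probe set of 1 gene and was not analysed here.

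Other isoforms of the enzyme steps were measured in part. IDH-IV (AT1G32480) differed by 0.83 and SDH1-2 (AT2G18450), the second flavoprotein gene of complex II, by 1.14, and both lay under background on all arrays. With single arrays left out, IDH-IV ranged from −0.08 to 1.74 and SDH1-2 from −0.17 to 2.45. SDH1-2 read 442 on aluminium array 2 and 47.5 to 94.1 on the others. The plastid malate dehydrogenases MDH (AT3G47520), which uses NAD, and AT5G58330, which uses NADP, differed by 0.48 and −0.14, with ranges of −0.07 to 1.02 and −0.74 to 0.46 under the same omissions. MDH read 1739 and 2228 on the aluminium arrays and 962 and 2065 on the controls. AT5G58330 read 3160 and 7277 on the aluminium arrays and 5421 and 5135 on the controls. In neither of these plastid genes did the groups separate.

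**Figure D4:**
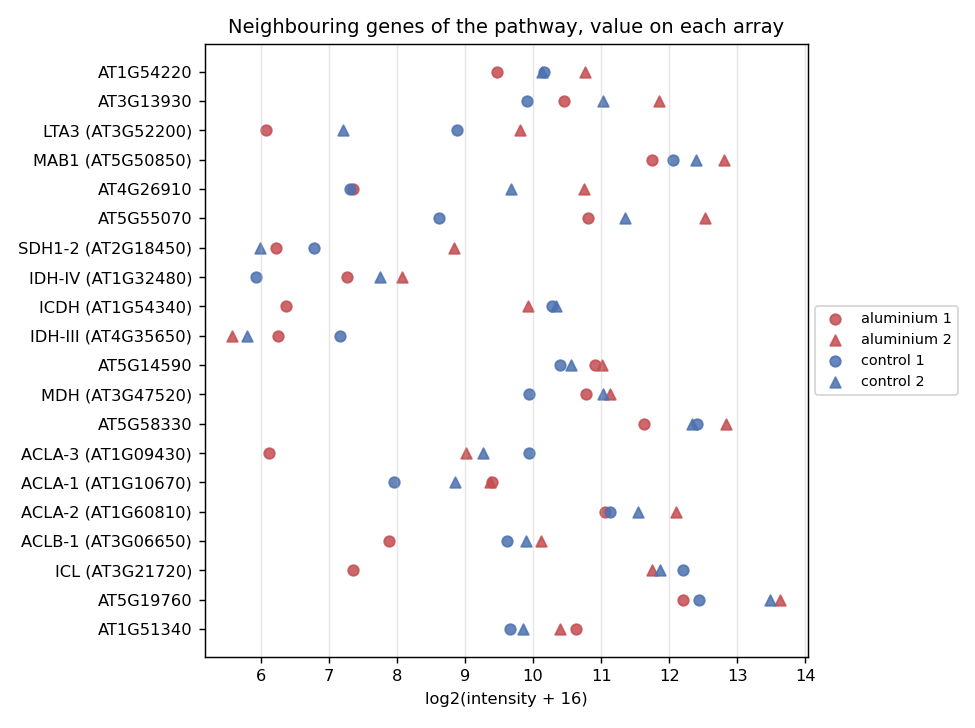
Level of the 20 measured neighbouring genes on each array, as log2(intensity + 16), with colours for treatment and symbols for the array number. Aluminium array 1 lies far to the left of the other arrays in ICL, ICDH and ACLA-3, and both triangles lie to the right of both circles in 9 genes.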

How the data were processed

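The authors deposited a linear intensity for each probe set on each array. GCOS and RMA appear in the submitters' processing notes, with neither role nor version. After trimming 2% of probe sets at each end, every array had a mean of 500.0, so the arrays had been scaled to a common mean.

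The 64 control probe sets were left out of the test, and no dim probe set was. Levels are given as log2(intensity + 16), which understates fold changes of dim probe sets. The treatments were compared with limma 3.58.1 (R 4.3.3), fitted over all 22746 plant probe sets, two-sided, with Benjamini-Hochberg adjustment and a threshold of 0.05. Groups "did not overlap" when both aluminium values lay above, or both below, both control values. Plots used matplotlib 3.10.9 in Python 3.11.15. The code of the fit was checked on simulated data with independent noise of equal spread for all genes. That setting differs from these arrays, so it does not measure the precision of the fit here. The platform's probe table gave 1 gene symbol to 13513 probe sets, several to 503 and none to 8730. Of the first, 13436 matched a gene of assembly TAIR10.1, used for names only. Genes with several probe sets were represented by the brighter one.

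The members and lists were chosen with earlier results of these data known, and no list was tested as a group. Neighbouring genes are all listed genes in the counts, and up to 2 per group by absolute difference in the text. The alternatives covered quantile normalization, median centring, a replicate block, filters on the dimmest 25% and 50%, a pseudocount of 1 or 64, a mean-dependent spread (also with robust estimation), a threshold of 0.1 and each array left out in turn. Counts of members with arrays left out or other scaling, and the comparison of array numbers, were chosen after seeing the data.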

Additional observations from a re-analysis of the deposited data

Results flagged for a closer look

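Control signals outside the comparison of genes were high on aluminium array 1. For the hybridization controls, its level was 2.57 times that of control array 1, the brighter of the controls. For 25S ribosomal RNA the factor over control array 1 was 2.58. On the same array 6 of the 11 enzyme genes had their lowest value, beside 3 on control array 1. Over all plant probe sets, 28.8% had their lowest value on aluminium array 1 and 26.7% on control array 1.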

How the results depend on the processing

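No probe set passed limma at an adjusted p of 0.05 under any alternative run. At an adjusted p of 0.1, 1 probe set, not of an enzyme gene of the list, passed with a robust spread that follows the mean, where the smallest adjusted p was 0.0954. Under the other settings 0 passed at 0.1, and the smallest was 0.3001 or above. With the replicate number as a block the count was 0 as well, with 1122 probe sets at an unadjusted p under 0.05 in place of 1084. The labels name no shared source for arrays of the same number, and the same-number deviations had r = 0.0867 over all plant probe sets. Whether arrays of the same number share a source was not tested. Probe sets whose groups did not overlap numbered 7440, and 3862 without the dimmest 50%. Those also 2-fold apart numbered 4455, and 1967 without the dimmest 50%; fewer probe sets are tested there. The median over the enzyme genes was 0.09 to 0.13 under the other scalings and pseudocounts, and −0.46 to 0.97 with single arrays left out. Of 152 differences of single probe sets under alternatives, 135 kept their sign and 17 reversed. The replicate block, the dim filters and the mean-dependent spread leave each difference unchanged, so no sign could reverse there. Apart from SDH2-1 with quantile normalization, every reversal came with a single array left out. With quantile normalization SDH2-1 stood at 0.0038, cICDH at 1.31 in place of 0.82, and 3 in place of 2 enzyme genes did not overlap. Over all plant probe sets the share without overlap was 32.9% there, in place of 32.7%. With single arrays left out, the ranges were −0.071 to 1.08 for IDH-VI, −0.54 to 0.36 for SDH2-1 and −0.33 to 0.58 for its second probe set. They were −0.56 to 1.11 for AT3G55410, −0.53 to 0.62 for IDH-V, −1.25 to 1.01 for AT5G08300 and −0.11 to 3.10 for AT5G23250. For SDH2-2 the range was −0.029 to 0.21, for AT5G65750 −1.54 to 0.97 and for SDH1-1 −2.05 to 1.80. The cause of these reversals was not tested. The filters on dim probe sets left out IDH-VI. With 2 arrays per group, the signal limits which enzyme genes can be read: IDH-VI lay under background on all arrays.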
